A study of Mus musculus with 6 samples.

Results

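The nucleolar genes described here are 41 genes that build ribosomes, listed by name, from the RNA polymerase I subunits that copy ribosomal DNA to the factors that fold, cut and modify the ribosomal RNA. Probe sets were assigned to them by the gene symbol of the array's annotation, and 40 of the 41 could be measured among 19938 genes with a named probe set. No probe set was named for Noc2l, which was not analysed here. The cells came from male mice aged 8 to 10 weeks that carried a Bcl6_RFP reporter and had been immunised with keyhole limpet haemocyanin (KLH) in complete Freund's adjuvant (CFA). CD4+ CD44+ T cells, that is, helper T cells carrying a marker of earlier activation, were sorted from the draining lymph nodes. There were 3 sorted groups of 2 arrays: Cxcr5-Bcl6- cells, with neither the chemokine receptor Cxcr5 at the surface nor reporter fluorescence; Cxcr5+Bcl6- cells, with the receptor alone; and Cxcr5+Bcl6+ cells, with both, the phenotype of follicular helper T cells. The reporter and the immunisation were shared by all groups. A minus for Bcl6 refers to the reporter, not to loss of the gene, and no unimmunised or CD44-negative cells were analysed here. The 2 arrays of a group were called biological replicates by the series, and whether mice were pooled was not given in the sources used here.

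Ribosome production begins in the nucleolus, where RNA polymerase I transcribes a long precursor RNA. Small nucleolar ribonucleoprotein particles (snoRNPs) then methylate and pseudouridylate it. The small subunit processome and a separate set of large-subunit factors cleave and fold it around ribosomal proteins. The process consumes much of a growing cell's energy. In T cells it is known to be switched on after antigen recognition, and Myc is a known activator of many of the genes.

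Transcripts of nucleolar genes were lower in Cxcr5+Bcl6+ cells than in Cxcr5-Bcl6- cells almost throughout. Of the 40 genes, 39 fell, none rose, and Wdr12 did not pass the test (limma, Benjamini-Hochberg adjusted p under 0.05). The median difference was -1.40 on the log2 scale, a level 2.64-fold lower, and 35 of the 40 were at least 2-fold lower. The background has to be read beside these counts, because 17.7% of the 23410 named probe sets were called lower in the same comparison and 17.6% higher. That share was 30.6% among probe sets with a mean level at or above the median, where all 40 genes lay. Only 3.66% of all named probe sets were called and at least 2-fold lower. The median difference over all named probe sets was 0.04.

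Cxcr5+Bcl6- cells lay between the other groups. Against Cxcr5-Bcl6- cells, 29 of the 40 genes were lower and none higher, with a median difference of -0.42 and none as far as 2-fold. The background of lower calls was 5.93% over all named probe sets and 8.31% among those at or above the median level, and 0.47% were called and at least 2-fold lower. Higher calls made up 5.22%. Against Cxcr5+Bcl6- cells, Cxcr5+Bcl6+ cells had 38 of the 40 genes lower, none higher and a median of -1.01. There 13% of all named probe sets, and 23.6% of those at or above the median level, were called lower, and 13.4% of all were called higher. All 3 comparisons share arrays, so they are not independent of one another.

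For 39 of the 40 genes, all but Wdr12, both Cxcr5-Bcl6- arrays stood above both Cxcr5+Bcl6- arrays, and those above both Cxcr5+Bcl6+ arrays. This order without overlap held for 12.2% of named probe sets. All 3 differences passed the test for 29 genes, 72.5% of those measured, against 2.95% of named probe sets. That number was 10 without Cxcr5+Bcl6- replicate 1, 13 without Cxcr5+Bcl6- replicate 2, 15 without Cxcr5-Bcl6- replicate 1 and 12 when unnamed rows were tested too, where 1.23%, 1.17%, 1.79% and 1.13% of named probe sets were lower in all 3. Expressed as a share of the whole distance from Cxcr5-Bcl6- to Cxcr5+Bcl6+ cells, the Cxcr5+Bcl6- mean had moved by a median of 29.7% over the 39 genes that fell. The lowest share was 15.9% and the highest 41.7%. In bulk samples, fewer cells that make a transcript and less of that transcript per cell cannot be told apart.

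**Figure D1:**
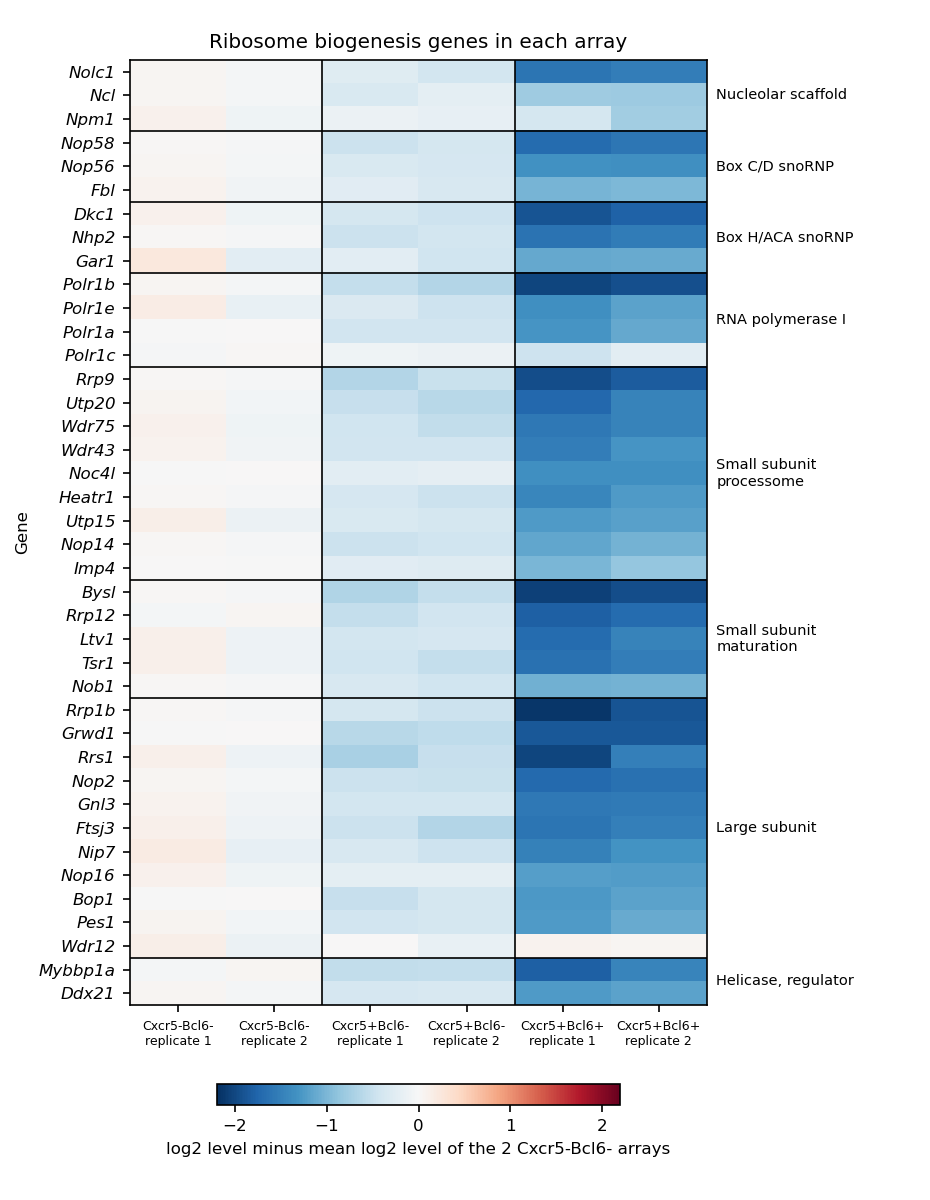
Each row is a nucleolar gene, grouped by role, and each column an array; colour gives the log2 level minus the mean log2 level of the 2 Cxcr5-Bcl6- arrays. The Cxcr5+Bcl6- columns are pale blue and the Cxcr5+Bcl6+ columns deep blue in nearly every row, with Wdr12 near white throughout and Polr1c and Npm1 changing least among the genes that fell.

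The E-box CACGTG, the palindrome that Myc paired with Max binds, lay in the start regions of 9 nucleolar genes, whose sequences show where it sits. Windows ran from 250 bases before to 50 bases after the annotated start, from RefSeq on build GRCm38.p6, and were found for 36 of the 41 genes. Capitals mark the E-box within 30 bases, read 5′ to 3′ on the gene's strand.
Grwd1 chr7:45830740-45830769, minus strand: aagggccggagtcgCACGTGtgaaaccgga
Imp4 chr1:34439696-34439725, plus strand: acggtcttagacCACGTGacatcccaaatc
Ltv1 chr10:13193092-13193121, minus strand: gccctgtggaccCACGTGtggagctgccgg
Mybbp1a chr11:72441347-72441376, plus strand: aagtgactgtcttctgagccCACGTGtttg
Nop2 chr6:125131811-125131840, plus strand: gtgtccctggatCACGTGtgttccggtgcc
Pes1 chr11:3963965-3963994, plus strand: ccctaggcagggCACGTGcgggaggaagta
Tsr1 chr11:74898092-74898121, plus strand: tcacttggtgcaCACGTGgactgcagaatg
Utp20 chr10:88826765-88826794, minus strand: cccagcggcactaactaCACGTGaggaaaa
Wdr43 chr17:71616220-71616249, plus strand: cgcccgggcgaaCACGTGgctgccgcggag

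The E-box was present for 9 of 36 nucleolar genes, or 25%, where a gene counted if any of its windows held a match. It was present for 16.9% of 89 other ribosome biogenesis genes and for 8.91% of 17491 protein-coding genes, searched on both strands. Of the 9 matches, 7 lay 2 to 40 bases downstream of the start. The Nop2 match lay 60 bases upstream and the Imp4 match 121 bases upstream. The ETS core CCGGAAG was present for 12 genes (33.3%), against 51.7% of the other biogenesis genes and 12.9% of protein-coding genes. TATAAA was present for 2 genes (5.56%), against 14.8% of protein-coding genes. A 10-letter NRF1 site was present for none, and for 1.47% of protein-coding genes. Median GC content was 58.8%, close to the 58% of the other biogenesis genes, and 56.3% for protein-coding genes. A match describes letters only and is not a measured binding site.

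Genes with and without the E-box fell over overlapping ranges. The 9 measured genes with it had a median difference of -1.58 between Cxcr5+Bcl6+ and Cxcr5-Bcl6- cells, with a range of -1.87 to -0.93. The 26 measured genes with a window and no E-box had a median of -1.35 and spanned -2.03 to 0.06, a range that holds the other one. As examples, the 250 bases before the start are shown for Nop2 and Polr1b. The Nop2 window holds the element, and Nop2 fell by 1.68. The Polr1b window, the only part of that gene searched, does not hold it, and Polr1b fell by 1.97. This pair was chosen with the values known, and its order is opposite to that of the medians. The Nop2 stretch is chr6:125131633-125131882, plus strand, with a GC content of 67.6%. The Polr1b stretch is chr2:129100746-129100995, plus strand, with a GC content of 49.6%.
Nop2: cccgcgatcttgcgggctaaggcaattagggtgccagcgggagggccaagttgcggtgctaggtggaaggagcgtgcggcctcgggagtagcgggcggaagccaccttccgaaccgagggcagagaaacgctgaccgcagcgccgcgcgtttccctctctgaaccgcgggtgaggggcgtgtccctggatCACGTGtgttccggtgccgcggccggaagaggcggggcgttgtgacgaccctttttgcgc
Polr1b: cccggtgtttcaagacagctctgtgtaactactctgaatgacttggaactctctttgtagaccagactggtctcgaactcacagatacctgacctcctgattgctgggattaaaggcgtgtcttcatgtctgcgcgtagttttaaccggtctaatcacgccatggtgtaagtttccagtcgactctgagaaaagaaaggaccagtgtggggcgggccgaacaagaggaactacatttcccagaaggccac

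The proteins that organise the nucleolus had the smallest median fall of any role, at -0.79 between the outer groups, that is, Cxcr5+Bcl6+ against Cxcr5-Bcl6- cells. Nolc1, a chaperone that escorts snoRNPs between the nucleolus and Cajal bodies, stood at log2 levels of 11.89 and 11.79 in Cxcr5-Bcl6- cells, 11.56 and 11.43 in Cxcr5+Bcl6- cells and 10.23 and 10.32 in Cxcr5+Bcl6+ cells. Nucleolin (Ncl), which binds the precursor RNA as it is made, stood at 13.06 and 12.96 in Cxcr5-Bcl6- cells, 12.68 and 12.80 in Cxcr5+Bcl6- cells and 12.23 and 12.21 in Cxcr5+Bcl6+ cells. Nucleophosmin (Npm1), a chaperone of ribosomal proteins and histones, stood at 12.58 and 12.39 in Cxcr5-Bcl6- cells, 12.36 and 12.31 in Cxcr5+Bcl6- cells and 12.09 and 11.71 in Cxcr5+Bcl6+ cells. Groups did not overlap for any of the 3, though the Npm1 arrays of Cxcr5+Bcl6+ cells lay far apart. Between Cxcr5+Bcl6+ and Cxcr5-Bcl6- cells, Nolc1 fell 2.95-fold (log2 -1.56 ± 0.0932 SE, limma adjusted p 2.42e-07). Ncl fell 1.73-fold (-0.79 ± 0.0905, adjusted p 3.35e-05) and Npm1 1.5-fold (-0.58 ± 0.124, adjusted p 0.00307). Another 3 probe sets were annotated to Npm1 together with another symbol, Gm15484, and their differences were smaller, at -0.25, -0.35 and -0.27, of which the middle one passed the test (adjusted p 0.0128). Npm1 has processed copies in the genome that probes can also bind, so its values are uncertain. Against Cxcr5+Bcl6- cells, Npm1 was lower by 0.43 (adjusted p 0.0242). That call was lost when the unnamed rows were tested too, and without Cxcr5+Bcl6+ replicate 2 or without either Cxcr5+Bcl6- array.

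Box C/D snoRNP proteins, which carry out guided methylation of ribosomal RNA, all fell. Nop58 stood at 11.83 and 11.78 in Cxcr5-Bcl6- cells, 11.34 and 11.42 in Cxcr5+Bcl6- cells and 10.11 and 10.21 in Cxcr5+Bcl6+ cells. Its partner Nop56 stood at 13.19 and 13.11 in Cxcr5-Bcl6- cells, 12.81 and 12.77 in Cxcr5+Bcl6- cells and 11.82 and 11.80 in Cxcr5+Bcl6+ cells. Fibrillarin (Fbl), the methyltransferase itself, stood at 11.88 and 11.74 in Cxcr5-Bcl6- cells, 11.57 and 11.47 in Cxcr5+Bcl6- cells and 10.79 and 10.82 in Cxcr5+Bcl6+ cells. The groups were separate for each gene, and the drop into Cxcr5+Bcl6+ cells was the larger of the steps in all 3. Nop58 fell 3.13-fold (log2 -1.65 ± 0.0898, adjusted p 1.17e-07), Nop56 2.52-fold (adjusted p 4.4e-07) and Fbl 2.01-fold (adjusted p 6.22e-06). A further Fbl probe set gave -1.01 as well. In Cxcr5+Bcl6- against Cxcr5-Bcl6- cells the Fbl probe sets differed in their call, with -0.29 (adjusted p 0.0672) for the one counted and -0.32 (adjusted p 0.0345) for the other.

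The box H/ACA particle, which converts uridines to pseudouridine, showed the same order. Dyskerin (Dkc1), the pseudouridine synthase, stood at 11.41 and 11.22 in Cxcr5-Bcl6- cells, 10.93 and 10.86 in Cxcr5+Bcl6- cells and 9.42 and 9.55 in Cxcr5+Bcl6+ cells. Nhp2, a core protein of the particle, stood at 11.04 and 10.98 in Cxcr5-Bcl6- cells, 10.54 and 10.61 in Cxcr5+Bcl6- cells and 9.39 and 9.48 in Cxcr5+Bcl6+ cells. Each group was clear of the next. Dkc1 fell 3.57-fold between the outer groups (log2 -1.83 ± 0.0986, adjusted p 1.04e-07) and Nhp2 2.98-fold (adjusted p 1.52e-07). Gar1 fell by 1.12 (adjusted p 5.46e-05). Its Cxcr5-Bcl6- arrays were 0.46 apart, the widest gap of any of these genes in that group, and its difference of -0.33 in Cxcr5+Bcl6- cells did not pass the test (adjusted p 0.168).

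RNA polymerase I subunits spanned most of the range of the whole set. Polr1b, which with Polr1a forms the catalytic core, stood at 12.18 and 12.10 in Cxcr5-Bcl6- cells, 11.62 and 11.50 in Cxcr5+Bcl6- cells and 10.13 and 10.21 in Cxcr5+Bcl6+ cells. Polr1e, a subunit of this polymerase that acts in initiation and elongation, stood at 11.08 and 10.77 in Cxcr5-Bcl6- cells, 10.61 and 10.48 in Cxcr5+Bcl6- cells and 9.58 and 9.75 in Cxcr5+Bcl6+ cells. Polr1c, which RNA polymerase I shares with RNA polymerase III, stood at 11.28 and 11.34 in Cxcr5-Bcl6- cells, 11.21 and 11.19 in Cxcr5+Bcl6- cells and 10.86 and 11.08 in Cxcr5+Bcl6+ cells. No groups overlapped, but the steps between groups were small for Polr1c. Polr1b fell 3.91-fold (log2 -1.97 ± 0.0921, adjusted p 3.78e-08), Polr1e 2.40-fold (adjusted p 6.38e-06) and Polr1a 2.31-fold (adjusted p 1.42e-06). Polr1c fell 1.26-fold, the smallest difference to pass (adjusted p 0.0185). Its call was lost under quantile normalization (adjusted p 0.0727), when unnamed rows were tested too (0.0536), without Cxcr5+Bcl6+ replicate 1 (0.123) and without Cxcr5-Bcl6- replicate 2 (0.0639).

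The 9 proteins of the small subunit processome, the large assembly that forms on the nascent precursor RNA, all fell, with differences from -1.89 to -0.93. Rrp9, a protein of the U3 snoRNP, stood at 11.19 and 11.13 in Cxcr5-Bcl6- cells, 10.52 and 10.66 in Cxcr5+Bcl6- cells and 9.21 and 9.33 in Cxcr5+Bcl6+ cells. Utp20, a long scaffold protein, stood at 11.12 and 11.01 in Cxcr5-Bcl6- cells, 10.56 and 10.45 in Cxcr5+Bcl6- cells and 9.34 and 9.59 in Cxcr5+Bcl6+ cells. In both, no arrays of different groups overlapped. Rrp9 fell 3.71-fold (log2 -1.89 ± 0.0946, adjusted p 5.73e-08) and Utp20 3.03-fold (-1.60 ± 0.104, adjusted p 4.56e-07). Wdr75, Wdr43, Heatr1 and Utp15, of the subcomplex tied to transcription, fell by 1.52, 1.41, 1.34 and 1.22. Nop14 and its binding partner Noc4l fell by 1.09 and 1.35, and Imp4, which works with the U3 particle, by 0.93. In Cxcr5+Bcl6- cells 7 of the 9 were already lower than in Cxcr5-Bcl6- cells. Imp4 (-0.27, adjusted p 0.0903) and Noc4l (-0.21, adjusted p 0.154) did not pass there.

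The 5 later small-subunit factors were lower in all 3 comparisons, each past the test, though in Cxcr5+Bcl6- against Cxcr5-Bcl6- cells Bysl alone of the 5 passed whichever array was left out. Without Cxcr5+Bcl6- replicate 1, Ltv1 (adjusted p 0.214), Nob1 (0.0697) and Rrp12 (0.0945) did not pass there, and without Cxcr5+Bcl6- replicate 2, Ltv1 (0.155), Nob1 (0.16) and Tsr1 (0.0935) did not. Without Cxcr5-Bcl6- replicate 1, the values were 0.217 for Ltv1, 0.0512 for Nob1 and 0.0665 for Tsr1. Median centring also ended the Ltv1 call (0.0755). Bysl, which binds the late small-subunit precursor, stood at 10.74 and 10.70 in Cxcr5-Bcl6- cells, 10.06 and 10.19 in Cxcr5+Bcl6- cells and 8.66 and 8.77 in Cxcr5+Bcl6+ cells. Rrp12, an export factor of the precursor, stood at 10.27 and 10.36 in Cxcr5-Bcl6- cells, 9.79 and 9.90 in Cxcr5+Bcl6- cells and 8.52 and 8.62 in Cxcr5+Bcl6+ cells. For both genes the replicate arrays of a group lay closer together than the groups did. Bysl fell 4.02-fold (log2 -2.01 ± 0.0925, adjusted p 3.42e-08) and Rrp12 3.35-fold (-1.75 ± 0.0921, adjusted p 8.83e-08). The cytoplasmic assembly factors Ltv1 and Tsr1 each fell by 1.58. Nob1, the nuclease that makes the last cut in the small-subunit RNA, fell by 1.04.

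Large-subunit factors gave both the deepest fall and the one gene that did not pass the test. Rrp1b, a nucleolar processing factor, stood at 11.33 and 11.26 in Cxcr5-Bcl6- cells, 10.91 and 10.82 in Cxcr5+Bcl6- cells and 9.15 and 9.40 in Cxcr5+Bcl6+ cells. Grwd1, a chaperone of a ribosomal protein, stood at 10.74 and 10.74 in Cxcr5-Bcl6- cells, 10.12 and 10.19 in Cxcr5+Bcl6- cells and 8.87 and 8.87 in Cxcr5+Bcl6+ cells. No array of one group reached into another for either. Rrp1b fell 4.07-fold, the largest fall of the set (log2 -2.03 ± 0.102, adjusted p 5.94e-08), and Grwd1 3.65-fold (-1.87 ± 0.0858, adjusted p 3.36e-08). Rrs1, which helps to bring the small ribosomal RNA of the large subunit into the particle, fell by 1.76, and the RNA methyltransferases Nop2 and Ftsj3 by 1.68 and 1.56. The nucleolar GTPase nucleostemin (Gnl3) fell by 1.56, Nip7 by 1.40 and Nop16 by 1.22.

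Bop1, Pes1 and Wdr12 encode the 3 partners of one complex, PeBoW, which is needed to process the large-subunit RNA, and of these Bop1 and Pes1 fell while Wdr12 did not pass the test. Bop1 stood at 11.16 and 11.19 in Cxcr5-Bcl6- cells, 10.66 and 10.79 in Cxcr5+Bcl6- cells and 9.92 and 10.00 in Cxcr5+Bcl6+ cells. Pes1 stood at 10.96 and 10.85 in Cxcr5-Bcl6- cells, 10.48 and 10.51 in Cxcr5+Bcl6- cells and 9.67 and 9.79 in Cxcr5+Bcl6+ cells. Wdr12 stood at 11.25 and 10.98 in Cxcr5-Bcl6- cells, 11.12 and 10.95 in Cxcr5+Bcl6- cells and 11.18 and 11.16 in Cxcr5+Bcl6+ cells. Bop1 and Pes1 separated the groups in the usual order, whereas for Wdr12 the Cxcr5-Bcl6- arrays overlapped both other groups, and both Cxcr5+Bcl6+ arrays stood above both Cxcr5+Bcl6- arrays. Bop1 fell 2.32-fold (log2 -1.22, 95% interval -1.41 to -1.02, adjusted p 1.25e-06) and Pes1 2.26-fold (-1.17, -1.38 to -0.97, adjusted p 1.88e-06). The Wdr12 difference was 0.06, with an interval of -0.18 to 0.30 (adjusted p 0.718), and a further Wdr12 probe set gave 0.02 (adjusted p 0.914). A fall as large as that of its partners lies outside this interval, while the difference between the genes was not itself tested. The sign of the Wdr12 value turned when Cxcr5-Bcl6- replicate 2 was left out (-0.08). Array values for Bop1, Pes1, Wdr12 and Polr1c are given because of what those values showed.

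The remaining genes, a helicase and a regulator, both fell. Mybbp1a, a nucleolar protein known to bind RNA polymerase I and p53, stood at 12.10 and 12.17 in Cxcr5-Bcl6- cells, 11.60 and 11.61 in Cxcr5+Bcl6- cells and 10.34 and 10.68 in Cxcr5+Bcl6+ cells. Ddx21, an RNA helicase that joins ribosomal RNA transcription to its processing, stood at 12.55 and 12.48 in Cxcr5-Bcl6- cells, 12.14 and 12.16 in Cxcr5+Bcl6- cells and 11.27 and 11.33 in Cxcr5+Bcl6+ cells. Neither gene had overlapping groups. Mybbp1a fell 3.09-fold (log2 -1.63 ± 0.112, adjusted p 7.2e-07) and Ddx21 2.32-fold (-1.21 ± 0.0873, adjusted p 9.93e-07).

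The smaller step, between Cxcr5+Bcl6- and Cxcr5-Bcl6- cells, was largest for Rrs1 (-0.61, adjusted p 0.022), Bysl (-0.60, 0.00158), Grwd1 (-0.58, 0.00108) and Polr1b (-0.58, 0.0019). The 11 genes that did not pass were Fbl, Gar1, Nip7, Nop16, Wdr12, Ncl, Npm1, Polr1c, Polr1e, Imp4 and Noc4l. All 11 had negative differences, between -0.41 for Nip7 and -0.08 for Wdr12. Among the counts over the 40 genes, this one turned on single arrays. It was 15 without Cxcr5-Bcl6- replicate 1, 10 without Cxcr5+Bcl6- replicate 1 and 13 without Cxcr5+Bcl6- replicate 2, and 31 without Cxcr5-Bcl6- replicate 2. Bysl, Grwd1, Mybbp1a, Nop2, Polr1b, Rrp9 and Utp20 passed whichever array was left out. When the unnamed rows of the array were tested together with the named ones, 12 of the 40 passed.

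**Figure D2:**
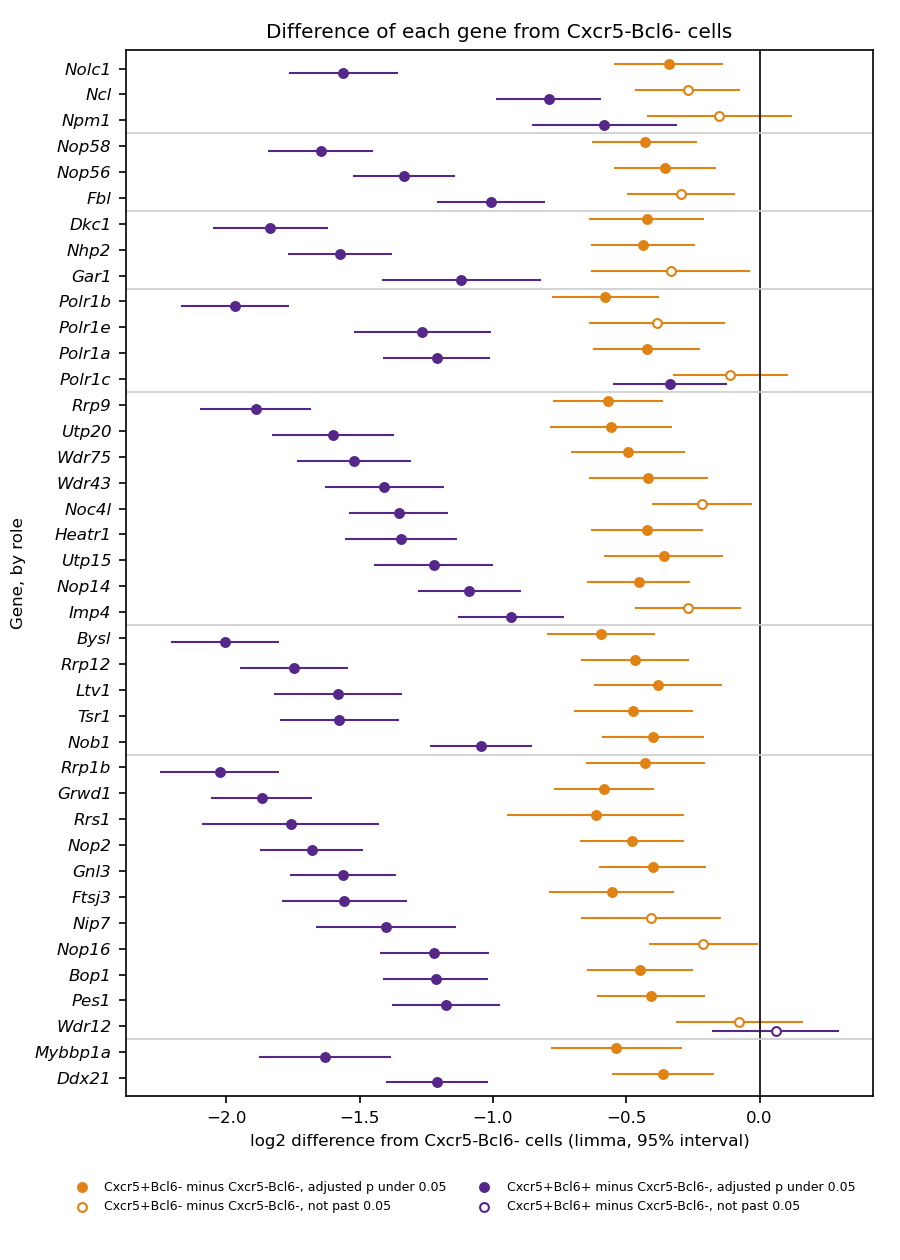
Each point is the fitted log2 difference of a gene from Cxcr5-Bcl6- cells with its 95% interval, orange for Cxcr5+Bcl6- and purple for Cxcr5+Bcl6+ cells, and open points did not pass an adjusted p of 0.05. The orange points sit around the median of -0.42 and the purple ones around -1.40, and the purple intervals lie to the left of 0 for every gene but Wdr12.

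The step from Cxcr5+Bcl6- to Cxcr5+Bcl6+ cells was at least 2-fold for 21 of the 40 genes, against a background of 1.65%. Rrp1b fell most (-1.60, adjusted p 6.87e-07), followed by Dkc1 (-1.41, 1.4e-06), Bysl (-1.41, 8.63e-07) and Polr1b (-1.39, 9.46e-07). Polr1c and Wdr12 did not pass. The Polr1c difference was -0.23 (95% interval -0.44 to -0.01, adjusted p 0.113) and that of Wdr12 0.14 (-0.10 to 0.37, 0.394). Whichever array was left out, 37 genes passed, the exception among the 38 being Npm1.

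These genes also moved together between the replicate arrays of Cxcr5-Bcl6- cells and of Cxcr5+Bcl6+ cells. In Cxcr5-Bcl6- cells 33 of the 40 were higher in replicate 1, by a median of 0.10 over the 40, although 42.6% of all named probe sets were. In Cxcr5+Bcl6+ cells 34 of the 40 were higher in replicate 2 and 6 in replicate 1, where 45.4% of all named probe sets were higher in replicate 1. The split was more even in Cxcr5+Bcl6- cells, with 23 higher in replicate 1 and 17 in replicate 2, beside 52.3% of all named probe sets higher in replicate 1. The genes thus shared deviations between the replicates of Cxcr5-Bcl6- and of Cxcr5+Bcl6+ cells, and a count over them is not a count of independent observations. These shared shifts were small beside the median differences of -1.40 and -1.01, and less so beside -0.42. At an unadjusted limma p under 0.05, 39, 37 and 39 of the 40 genes were lower in the 3 comparisons and 0 higher. The share of all named probe sets at this threshold is not given here, so these counts have no background beside them.

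Ribosome biogenesis genes outside the set were mostly lower too. Of 108 other measured genes of the pathway, 97 were lower and none higher in Cxcr5+Bcl6+ cells than in Cxcr5-Bcl6- cells, with a median of -0.93. The background of lower calls there was 17.7% of all named probe sets and 30.6% of those at or above the median level. At an unadjusted limma p under 0.05, for which no background share is given here, 99 were lower and 1 higher. Under quantile normalization 92 were lower and 2 higher. Mrto4, a large-subunit assembly factor, fell by 1.81 (adjusted p 4.81e-08), and Naf1, which assembles H/ACA particles, by 1.79 (3.35e-07). The processome proteins Pwp2 and Mphosph10 fell by 1.63 and 1.46, the large-subunit factor Ebna1bp2 by 1.5 and the small-subunit factor Pno1 by 1.48. In Cxcr5+Bcl6- against Cxcr5-Bcl6- cells 38 of the 108 were lower, none higher, with a median of -0.29. The same 2 background shares were 5.93% and 8.31% in this comparison. Nle1 (-0.58), Wdr46 (-0.58), Naf1 (-0.66), Nat10 (-0.66), Mrto4 (-0.52) and Dhx33 (-0.52) had the smallest p-values. This count was 15 without Cxcr5-Bcl6- replicate 1, 14 without Cxcr5+Bcl6- replicate 1 and 10 without Cxcr5+Bcl6- replicate 2. Between Cxcr5+Bcl6+ and Cxcr5+Bcl6- cells 90 were lower and none higher, with a median of -0.61, beside background shares of 13% and 23.6%. Mrto4 (-1.29), Pno1 (-1.19), Ebna1bp2 (-1.15), Mphosph10 (-1.11), the methyltransferase Dimt1 (-1.09) and the exosome subunit Exosc2 (-1.07) led the 90.

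Within RNA polymerase I and its factors the falls were uneven. Besides the 4 subunits above, Polr1f fell by 0.95 and Polr1g by 0.93 in the comparison of the outer groups. The initiation factor Rrn3 fell by 0.96 (adjusted p 1.92e-05). Polr1d, which like Polr1c is shared with RNA polymerase III, fell by 0.47 (0.00105). Polr1h (-0.23, adjusted p 0.0708) and the DNA-binding factor Ubtf (-0.12, 0.345) did not pass. Polr1h was near the threshold. It passed with a variance trend (limma adjusted p 0.0487), after median centring (0.0415) and at or above the median level (0.0373). These 6 genes were singled out after their values were seen.

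The ribosomal proteins, the cargo that this machinery assembles, moved much less. Of 53 measured genes, 12 were lower and none higher in Cxcr5+Bcl6+ cells than in Cxcr5-Bcl6- cells, and the median was -0.12. At an unadjusted limma p under 0.05, for which no background share is given here, 16 were lower and 0 higher. The share called, 12 of 53, was near the 17.7% of all named probe sets, and below the 30.6% of those at or above the median level. Rpl12 stood apart with a fall of 1.55 (adjusted p 9.02e-07), followed by Rpl30 (-0.76), Rpl14 (-0.56) and Rpl26 (-0.39). Rpl12 alone was lower in Cxcr5+Bcl6- cells than in Cxcr5-Bcl6- cells (-0.56, adjusted p 0.00672), a call lost without Cxcr5+Bcl6- replicate 1 (adjusted p 0.0684) and when unnamed rows were tested too (0.0587). Between Cxcr5+Bcl6+ and Cxcr5+Bcl6- cells 5 were lower, Rpl12 again first (-0.99, adjusted p 5.45e-05); this count was 1 without either array of Cxcr5+Bcl6+ or of Cxcr5+Bcl6- cells and 7 without either Cxcr5-Bcl6- array. Many ribosomal proteins have processed copies in the genome that probes can also bind, so their values are uncertain.

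Myc, the transcription factor best known for driving ribosome production, had the same order of groups. It stood at 13.53 and 13.50 in Cxcr5-Bcl6- cells, 13.07 and 13.10 in Cxcr5+Bcl6- cells and 11.52 and 11.57 in Cxcr5+Bcl6+ cells. No groups overlapped, and the Cxcr5+Bcl6+ arrays lay far below the rest. Myc fell 3.93-fold between Cxcr5+Bcl6+ and Cxcr5-Bcl6- cells (log2 -1.97 ± 0.0857, adjusted p 2.28e-08) and by 1.54 when Cxcr5+Bcl6+ cells were set against Cxcr5+Bcl6- cells (3.1e-07). The difference in Cxcr5+Bcl6- against Cxcr5-Bcl6- cells was -0.43 (adjusted p 0.00724), a call that each Cxcr5+Bcl6- array was needed for (adjusted p 0.0885 without replicate 1, 0.0615 without replicate 2).

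The genes that compete with Myc for its partner Max, or join the same network, went in both directions. Mxd4, a repressor that pairs with Max, stood at 9.63 and 9.60 in Cxcr5-Bcl6- cells, 10.31 and 10.29 in Cxcr5+Bcl6- cells and 10.99 and 11.18 in Cxcr5+Bcl6+ cells. It thus rose in the reverse order, by 1.47 between the outer groups (adjusted p 3.7e-07), 0.69 for the first step (0.000615) and 0.78 for the second (9.6e-05). Mxd1, of the same family, stood at 11.18 and 11 in Cxcr5-Bcl6- cells, 10.68 and 10.47 in Cxcr5+Bcl6- cells and 9.57 and 9.77 in Cxcr5+Bcl6+ cells and fell by 1.41 (adjusted p 2e-06). Compared with Cxcr5-Bcl6- cells, Mxd3 rose by 0.40 in the Cxcr5+Bcl6+ group (adjusted p 0.0138) and by 0.44 in the Cxcr5+Bcl6- group (0.0223), and both calls were lost without Cxcr5-Bcl6- replicate 1. The first was also lost without Cxcr5+Bcl6+ replicate 1 and the second without Cxcr5+Bcl6- replicate 1. Mlx (-0.41, adjusted p 0.00861), Mlxip (-0.36, 0.0157) and Mga (-0.29, 0.0495) were lower in Cxcr5+Bcl6+ cells than in Cxcr5-Bcl6- cells. Of these, Mlx lost its call without Cxcr5-Bcl6- replicate 1 or Cxcr5+Bcl6+ replicate 2, Mlxip without Cxcr5+Bcl6+ replicate 1 or Cxcr5-Bcl6- replicate 2, and Mga without any one array except Cxcr5+Bcl6+ replicate 2, as well as when unnamed rows were tested too (adjusted p 0.113). Mlxip and Mga also lost theirs under quantile normalization (adjusted p 0.078 and 0.172). Mnt was higher in Cxcr5+Bcl6+ cells than in Cxcr5+Bcl6- cells (0.33, adjusted p 0.0235), a call lost without any one array of those 2 groups. Median centring (adjusted p 0.0692) and testing unnamed rows too (0.0637) also ended the Mnt call. With unnamed rows, the calls against Cxcr5-Bcl6- cells were lost for Mxd3 in Cxcr5+Bcl6+ (0.0532) and Cxcr5+Bcl6- cells (0.108). The Mlxip call in Cxcr5+Bcl6+ cells was lost there too (0.0507). Max (0.03), Mxi1 (0.19), Mycn (0.01) and Mycl (-0.02) did not pass between the outer groups; Mxi1 did under quantile normalization (adjusted p 0.0467).

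**Figure D3:**
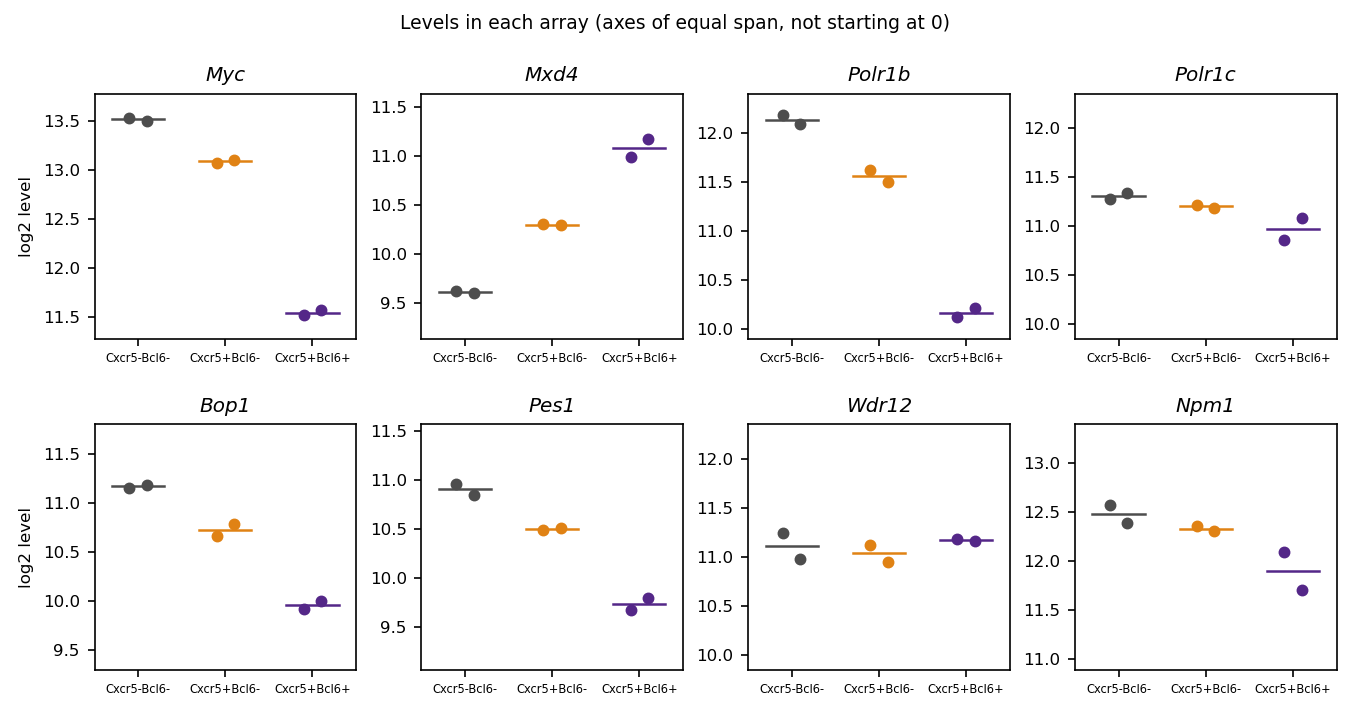
Log2 levels of 8 genes in each array, with a line at the mean of the 2 arrays of a group; the vertical axes span the same range of log2 units but start at different levels. Myc, Polr1b, Bop1 and Pes1 step down from Cxcr5-Bcl6- to Cxcr5+Bcl6+ cells and Mxd4 steps up, while the Cxcr5-Bcl6- arrays of Wdr12 overlap both other groups and Polr1c and Npm1 fall little.

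Genes of cell division were higher in both Cxcr5+ groups than in Cxcr5-Bcl6- cells. Against backgrounds of 5.22% and 17.6% higher calls, all 13 measured mitosis genes were higher in Cxcr5+Bcl6- cells than in Cxcr5-Bcl6- cells, with a median of 1.30, and all 13 were higher in Cxcr5+Bcl6+ cells than in Cxcr5-Bcl6- cells, with a median of 0.75. The proliferation marker Mki67 stood at 10.42 and 10.38 in Cxcr5-Bcl6- cells, 11.77 and 11.77 in Cxcr5+Bcl6- cells and 11.46 and 11.59 in Cxcr5+Bcl6+ cells. The cyclin Ccnb2 stood at 10.56 and 10.53 in Cxcr5-Bcl6- cells, 11.96 and 11.76 in Cxcr5+Bcl6- cells and 11.64 and 11.73 in Cxcr5+Bcl6+ cells. For both, the Cxcr5-Bcl6- arrays, highest for nucleolar genes, were the lowest. Between Cxcr5+Bcl6+ and Cxcr5+Bcl6- cells 11 of the 13 were lower, the same direction as the nucleolar genes, against a background of 13% of named probe sets, with a median of -0.56.

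**Figure D4:**
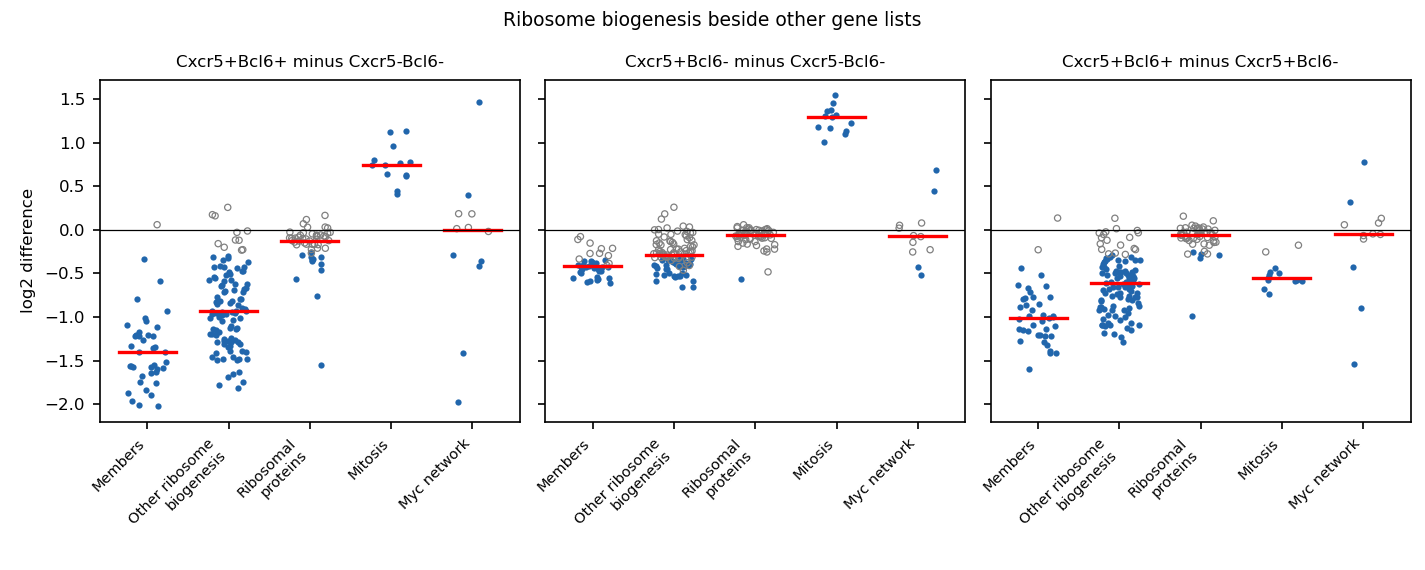
Each point is the log2 difference of a gene in 1 of the 3 comparisons, filled where the adjusted p was under 0.05, and red lines are medians over the measured genes of a list. In the left panel the medians are -1.40 for the nucleolar genes (labelled Members), -0.93 for other ribosome biogenesis genes, -0.12 for ribosomal proteins, 0.75 for mitosis genes and close to 0 for the Myc network.

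The arrays of a group correlated at 0.9966 to 0.9985 over the 23410 named probe sets, and arrays of different groups at 0.9706 to 0.9924. The interquartile range of log2 levels was narrower in Cxcr5+Bcl6+ arrays, at 2.86 to 2.97, where the other 4 had 3.02 to 3.15. The genes used for sorting followed the labels: against the Cxcr5-Bcl6- arrays, Cxcr5 rose by 2.47 in the Cxcr5+Bcl6- arrays and by 3.52 in the Cxcr5+Bcl6+ arrays, where Bcl6 rose by 1.19 (adjusted p 1.15e-06). T cell markers were high in every array, with summed linear signals of 44316 to 51955 over 7 genes.

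Markers of other cell types moved with the groups as well. Summed over 6 plasmacytoid dendritic cell markers, the signal was 6181 to 6241 in Cxcr5-Bcl6-, 2422 to 2457 in Cxcr5+Bcl6- and 1586 to 1787 in Cxcr5+Bcl6+ arrays, and all 6 markers fell in both comparisons with Cxcr5-Bcl6- cells. Over 9 dendritic and myeloid markers the sums were 6156 to 6330, 2028 to 2044 and 1870 to 1920. Over 5 CD8 and natural killer cell markers they were 1761 to 1762, 1025 to 1074 and 891 to 932. In the comparison of the outer groups, 5 of the 9 dendritic and myeloid markers were called lower and 1 higher, and 4 of the 5 CD8 and natural killer cell markers were called lower. Among all named probe sets 17.7% were called lower there and 17.6% higher, and 5.93% were called lower in Cxcr5+Bcl6- against Cxcr5-Bcl6- cells. In these 3 lists the larger drop set Cxcr5+Bcl6- apart from Cxcr5-Bcl6- cells. For the nucleolar genes the larger drop set Cxcr5+Bcl6+ apart from Cxcr5+Bcl6- cells. Their sums were 123537 to 133291, 98336 to 99905 and 53164 to 55153 in the same order of groups. The sums over 6 plasma cell markers fell from 16167 to 16280, through 12670 to 13059, to 6541 to 6868. Their larger drop lay at the same place as that of the nucleolar genes. Of these 6 markers, Irf4, Xbp1 and Prdm1 are also made by activated T cells. B cell markers rose, from 1206 to 1211, through 1611 to 1682, to 2823 to 2978 over 7 genes. Of these lists, 4 of 6 plasma cell markers were called lower and 6 of 7 B cell markers higher between the outer groups. What part RNA from such cells has in the nucleolar differences was not tested.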

How the data were processed

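RNA from 6 samples was hybridised to Affymetrix arrays, 2 arrays for each of 3 sorted groups. The deposited values are log2 probe-set levels, normalised by the authors; per the submitters' processing notes GCOS 1.1, RMA and Affymetrix Expression Console were used, with no order or settings named. The genome build was not stated by these notes, and no detection calls were used here. Arrays have no read depth, and their number, 2 per group, limits the precision.

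Of 35556 rows, 21789 probe sets carried 1 gene symbol, 1621 several and 12146 none here. Symbols came from the platform annotation of 2016, of which 21698 were updated through Entrez identifiers with RefSeq. All 23410 named probe sets were fitted with limma 3.58.1 in R 4.3.3 (group means, eBayes, two-sided, Benjamini-Hochberg, threshold 0.05, no fold threshold, 3 residual degrees of freedom). The code of the fit was run on simulated arrays with independent noise and few changed probe sets. Such a run checks the code and not the counts given here. Counts over a list use 1 probe set per gene, that with the highest mean. Further probe sets are reported for the nucleolar genes only. Gene symbols of 3 polymerase subunits were matched through older names. Protein sequences were not analysed here.

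The 41 genes, the other lists and the tests were chosen with earlier results of these data known. Array values are given for the 2 genes of each role with the largest difference and for Ncl, Npm1 and Fbl. Up to 6 other biogenesis genes and 4 ribosomal proteins per comparison are named by smallest p, and Myc network genes 1 by 1. Whether replicate numbers pair the samples is not known here. Replicate differences correlated at -0.23, 0.26 and -0.05 between groups, and such values cannot settle it. Alternatives were moderation settings, quantile normalization, median centring, a level filter, all rows, 1 probe set per gene, only the arrays compared, a replicate block and each array left out. P-values set each difference against the spread between these arrays. That spread was moderated toward a prior from all named probe sets (SD 0.0989, 8.25 degrees of freedom, beside 3 residual ones).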

Additional observations from a re-analysis of the deposited data

How the results depend on the processing

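Over the 40 nucleolar genes no alternative made any gene pass as higher. The count lower in Cxcr5+Bcl6+ against Cxcr5-Bcl6- cells was 38 to 39 when 1 array was left out, 10 to 31 in Cxcr5+Bcl6- against Cxcr5-Bcl6- cells and 37 to 38 in Cxcr5+Bcl6+ against Cxcr5+Bcl6- cells, and the count higher was 0 to 0 in each. The medians ranged over -1.53 to -1.35, -0.47 to -0.36 and -1.07 to -0.92. Adding the unnamed rows left 12 of 29 calls in Cxcr5+Bcl6- against Cxcr5-Bcl6- cells, where more features were tested and share the variance estimate. Quantile normalization moved the median between the outer groups to -1.32, and median centring moved that between Cxcr5+Bcl6+ and Cxcr5+Bcl6- cells to -1.08; the cause was not tested. Median centring also changed the share of rises among all calls in the latter comparison to 35%. With the replicate number as a block, the counts lower were 39, 26 and 38, so the block moved no count by over 1.5 times; a crossed pairing chosen after seeing the data gave 39, 32 and 38. The block ended the call of Mga between the outer groups (limma adjusted p 0.0571), as did robust moderation (just above 0.05). In Cxcr5+Bcl6- against Cxcr5-Bcl6- cells the block ended the calls of Nolc1 (0.0532), Utp15 (0.0548) and Ltv1 (0.0687), and of Nop10 (0.0641) outside the set. In Cxcr5+Bcl6+ against Cxcr5+Bcl6- cells it ended those of Rpl14 (0.0563), Rpl26 (0.065) and Rpl34 (0.0503). Of single genes, the sign of Wdr12 reversed with 1 array left out, where its value ran from -0.075 to 0.196 in Cxcr5+Bcl6+ against Cxcr5-Bcl6- cells and from -0.212 to 0.0591 in Cxcr5+Bcl6- against Cxcr5-Bcl6- cells. Over all alternatives, 4 gene-level calls were lost in Cxcr5+Bcl6+ against Cxcr5-Bcl6- cells, all of Polr1c, 77 in Cxcr5+Bcl6- against Cxcr5-Bcl6- cells, where 18 were gained, and 4 in Cxcr5+Bcl6+ against Cxcr5+Bcl6- cells, where 2 were gained. The 38 other biogenesis genes lower in Cxcr5+Bcl6- cells became 58 with a variance trend, 57 at or above the median level, 26 after median centring and 10 with all rows. The 12 ribosomal proteins lower between the outer groups became 22 with a trend, where 2 were higher, and the 5 lower against Cxcr5+Bcl6- cells became 9 with a trend, where 1 was higher, 3 with the replicate block and 1 under quantile normalization or with all rows.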

Other observations

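Other lists of genes that serve growth, compared between Cxcr5+Bcl6+ and Cxcr5-Bcl6- cells, differed in how many members fell; they were drawn up with earlier results of these data known. Of 18 nucleotide synthesis genes, 14 fell and 1 rose, where 17.7% of all named probe sets were called lower and 17.6% higher. Ctps, which makes cytidine triphosphate, fell by 1.96 (limma adjusted p 5.37e-08), and the pyrimidine enzymes Cad and Umps by 1.73 and 1.5. The purine enzyme Gart fell by 1.54. The ribonucleotide reductase subunit Rrm2, which supplies DNA synthesis, rose by 0.58 (adjusted p 0.00378). In Cxcr5+Bcl6- against Cxcr5-Bcl6- cells 8 fell and 3 rose, the risers being Rrm2 (1.09), Tyms (0.89) and Rrm1 (0.71); the number that fell there was 4 without either Cxcr5+Bcl6- array. Of all named probe sets, 5.93% were called lower and 5.22% higher in Cxcr5+Bcl6- against Cxcr5-Bcl6- cells. Between the outer groups Srm, the spermidine synthase, fell by 2 (adjusted p 2.4e-08), and it was the one of 4 measured polyamine genes to pass.

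Of 18 cytosolic aminoacyl-tRNA synthetase genes, 16 fell and none rose between the same groups, with a median of -0.76. Of 29 translation initiation factor genes, 23 fell and none rose, with a median of -0.52. Of 72 mitochondrial ribosomal protein genes, 54 fell and none rose, with a median of -0.45, beside -0.12 for the cytosolic ribosomal proteins; the difference between these lists was not tested. RNA polymerase III subunit genes gave 8 lower and 1 higher of 10, led by Polr3d (-1.30) and Polr3e (-1.13). The nuclear import and small nuclear RNP genes gave 9 lower of 12, and the 14 core proteasome genes 7 lower, with a median of -0.29. In this comparison 17.7% of all named probe sets were called lower and 17.6% higher. Among those at or above the median level, 30.6% were called lower. In Cxcr5+Bcl6- against Cxcr5-Bcl6- cells, by limma, none of the 18 synthetase genes passed. At an unadjusted limma p under 0.05, for which no background share is given here, 8 were lower and 1 higher. Of the 29 initiation factors 1 passed, and of the 72 mitochondrial ribosomal proteins 5 did. In this comparison 5.93% of all named probe sets were called lower, and 8.31% of those at or above the median level.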
